A study of Mus musculus with 31 samples.

Results

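The genes described here are the early neuronal activity factor Npas4 and 7 effector genes that neurons switch on after it or alongside it, namely Bdnf, Arc, Homer1, Nptx2, Inhba, Pcsk1 and Scg2. These 8 genes, of 48795 in the deposited count table, were listed by name and found by gene symbol, and all 8 passed the count filter that left 19529 genes for testing. They were selected on the difference between control and deltamethrin in these same libraries, together with their known role, so the group differences below are a description and support nothing. The study measured total RNA from mouse brain after exposure during development to the pyrethroid deltamethrin, an insecticide that keeps voltage-gated sodium channels open. The control group had 13 samples and the deltamethrin group 18, each placed by its agent label. Both groups were aliquots of homogenised brain tissue, and the labels used here name the agent and the tissue but no strain, sex, age, dose, litter or time of collection. Nothing in the labels says whether the samples came from separate animals, so the p-values measure the spread between these samples, which may be technical in part.

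Synaptic input that depolarises a neuron lets calcium in, and calcium-activated kinases and phosphatases then switch on a first wave of genes that needs no new protein. Npas4, a basic helix-loop-helix PAS transcription factor, belongs to this wave and is unusual in responding to calcium entry more than to growth factors; with its partner Arnt2 it binds enhancers and promoters of later genes, Bdnf among them. The products of the effector genes, whether switched on after Npas4 or alongside it, act at or near synapses. Bdnf encodes a secreted neurotrophin, Arc a protein that promotes removal of AMPA receptors from the synapse, Homer1 a postsynaptic scaffold and Nptx2 a secreted pentraxin that clusters AMPA receptors. Inhba encodes the activin A subunit, Pcsk1 a protease that cuts prohormones in dense-core granules, and Scg2 secretogranin II, a protein stored in those granules. Rapid induction by synaptic activity is best known for Npas4, Arc, Bdnf, Nptx2 and the short form of Homer1 in excitatory neurons of cortex and hippocampus.

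Promoter sequences from RefSeq (GRCm38.p6) were available for 6 of the 8 genes, in 13 windows, of which 7 belong to Bdnf with its many alternative start sites. Arc and Nptx2 had no entry. The first 250 bases before each start were searched on both strands for TGACG, the core of the cyclic AMP response element bound by CREB, for its full palindrome TGACGTCA, which contains TGACG on both strands, and for TCGTG, a core motif of NPAS4. TGACG was found in 5 of the 13 windows, 1 each for Npas4, Bdnf (of 7), Homer1 (of 2), Pcsk1 and Scg2, and in 17.7% of all 32817 RefSeq windows. The palindrome was present in 2 of the 13 windows, those of Pcsk1 and Scg2, and in 1.55% of all windows. TCGTG was found in 2 of the 13 windows, both of Bdnf, against 13.3% of all windows. The AP-1 motif TGANTCA occurred in 1 Bdnf window (6.75% of all windows), and the CArG box of serum response factor, searched by its consensus, in no member window (1.47% of all windows). The Inhba window held no match to any of the 5 motifs. A match describes letters in a window and not a bound site. The stretches around the TGACG matches are shown as a description, and a relation of the matches to the expression results below was not tested. Capitals mark TGACG or TCGTG on either strand, each stretch is written 5′ to 3′ on the strand of the gene, and the Npas4 and Scg2 stretches are shorter because a GENCODE exon with an earlier start covers them.
Npas4 (chr19:4990129-4990158, minus strand): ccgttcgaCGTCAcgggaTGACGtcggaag
Bdnf (chr2:109692373-109692432, plus strand): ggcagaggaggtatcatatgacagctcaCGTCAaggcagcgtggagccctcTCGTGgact
Homer1 (chr13:93303694-93303753, plus strand): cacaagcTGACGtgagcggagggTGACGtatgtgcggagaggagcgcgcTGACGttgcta
Pcsk1 (chr13:75089765-75089824, plus strand): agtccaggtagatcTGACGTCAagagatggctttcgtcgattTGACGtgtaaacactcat
Scg2 (chr1:79440076-79440105, minus strand): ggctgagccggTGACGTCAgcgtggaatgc
Homer1 carried 3 TGACG matches within 56 bases of its start, while the 2 of Npas4 lay 179 and 169 bases before its RefSeq start. The Bdnf stretch precedes an internal start site and holds the TGACG match 35 bases and a TCGTG match 12 bases before it.

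Total counts per library ran from 17570311 to 35716869 in control (median 28846830) and from 24563143 to 38680621 in deltamethrin (median 30698475). Values are given as CPM, counts scaled to a common library total, with library sizes adjusted by trimmed mean of M-values (TMM) factors, and fold changes as deltamethrin over control on the log2 scale. Each of the 12 marker lists for brain regions and cell types, including cortical and hippocampal projection neurons, striatum, cerebellum, glia, vessels, choroid plexus and blood, had counts for every marker in all 31 libraries. At these totals a count above 0 is a low bar, and no list of another organ was checked, so this does not identify the tissue. By edgeR's quasi-likelihood test 0 of 19529 genes had an adjusted p-value under 0.05 (853 had an unadjusted p-value under 0.05), and the count was also 0 with DESeq2 and limma voom. Control replicate 10 and deltamethrin replicate 5 stood apart from the other 29 libraries in several members, and results that rest on them are given with and without them.

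Npas4 (ENSMUSG00000045903, chromosome 19, 4984355 to 4990316, minus strand, GRCm38) had the widest spread of the 8 genes. In control it ran from 2.89 CPM through a median of 13.5 CPM to 35.3 CPM, and in deltamethrin from 3.5 CPM through a median of 6.99 CPM to 36.2 CPM. The groups overlapped over nearly their whole range, the highest library was a deltamethrin one and the lowest a control one, and 16 of 18 deltamethrin libraries lay below the control median. Its mean was 14.9 ± 9.91 CPM in control (SD, n = 13) and 9.02 ± 7.87 CPM in deltamethrin (SD, n = 18). The log2 fold change was -0.74 ± 0.34 (SE; unadjusted p = 0.0375, adjusted 0.813 over the 19529 genes, edgeR). It was the only member with an unadjusted p-value under 0.05, 1 of 8 beside 4.37% of all genes tested (2.37% of all genes had one and were lower in deltamethrin), and nothing is read from that count because the selection used this contrast. In bulk tissue, fewer cells with the transcript and less of it per cell cannot be told apart. Without deltamethrin replicate 5 the fold change was -1.01 (unadjusted p = 0.00154 by edgeR), and without control replicate 10 it was -0.56 (unadjusted p = 0.104), so removal of control replicate 10 took it past the unadjusted threshold. Leaving out both gave -0.84 (unadjusted p = 0.00603, adjusted p = 0.922 over all genes by edgeR). Both libraries were singled out for high values of Npas4 and other members, which by itself lowers the spread. The p-values of these refits are therefore only a description.

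Across all 8 genes 4 had a negative and 4 a positive log2 fold change (49.5% of all genes tested were negative), and 0 had an adjusted p-value under 0.05 (0% of all genes; edgeR). Their median log2 fold change was -0.0022, beside 0.0014 for all genes tested. The 7 effectors alone had a median of 0.045, with 3 lower, 4 higher and 0 at an unadjusted p-value under 0.05 by edgeR.

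**Figure D1:**
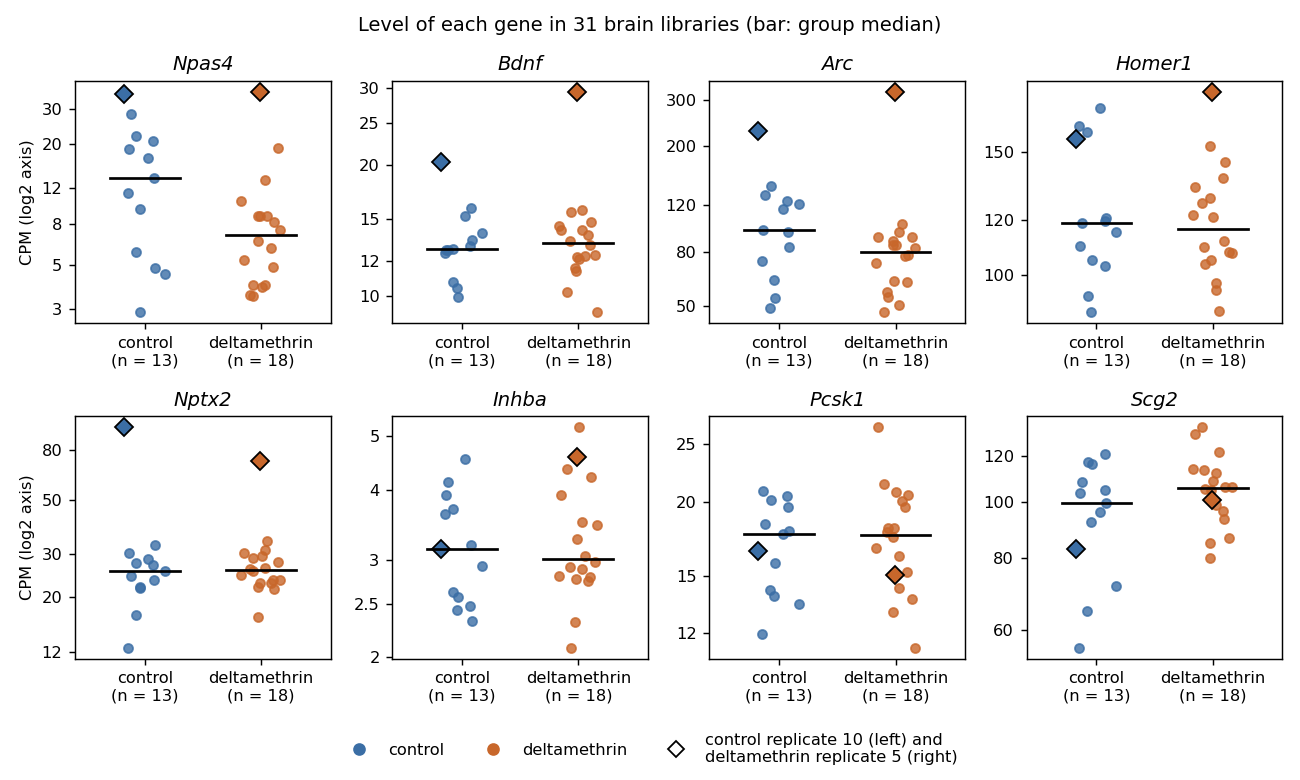
CPM (log2 axis) of the 8 genes in 13 control and 18 deltamethrin libraries, 1 point per library, with a bar at the group median and diamonds for control replicate 10 and deltamethrin replicate 5. Npas4 spans 2.89 to 36.2 CPM and the groups overlap for every gene, while the diamonds sit at the top of the Npas4, Bdnf, Arc and Nptx2 panels and inside the range of the Inhba, Pcsk1 and Scg2 panels.

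Arc was the effector nearest to Npas4 in its group difference. Arc (ENSMUSG00000022602, chromosome 15, 74669083 to 74672570, minus strand) ran from 49.2 through a median of 96.7 to 228 CPM in control and from 47.2 through 79.9 to 320 CPM in deltamethrin. The ranges overlapped throughout, with 16 of 18 deltamethrin libraries below the control median and the highest value in deltamethrin replicate 5. The log2 fold change was -0.25 ± 0.22 (SE; unadjusted p = 0.265, adjusted 0.823 edgeR). Without deltamethrin replicate 5 it was -0.48 (unadjusted p = 0.00544, adjusted 0.713), and without control replicate 10 it was -0.11 (unadjusted p = 0.622; edgeR). With both left out it was -0.34 (unadjusted p = 0.0239, adjusted p = 0.922 over all genes by edgeR). As for Npas4, these refits left out libraries singled out for high values, so their p-values are only a description.

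Bdnf and Nptx2, the neurotrophin and the AMPA receptor clustering pentraxin, had medians that nearly coincided between the groups. Bdnf (ENSMUSG00000048482, chromosome 2, 109674700 to 109727007, plus strand) ran from 9.95 through 12.9 to 20.3 CPM in control and from 9.16 through 13.2 to 29.4 CPM in deltamethrin. Its log2 fold change was 0.055 ± 0.12 (SE; adjusted p = 0.92, edgeR), and it was -0.037 without deltamethrin replicate 5. The antisense gene Gm45346 shares exonic bases with Bdnf and had 0 to 12 counts per library against 135 to 904 for Bdnf; whether counting used strand is not given in the sources used here. Nptx2 (ENSMUSG00000059991, chromosome 5, 144545902 to 144557478, plus strand) ran from 12.4 through 25.6 to 98.6 CPM in control and from 16.6 through 25.9 to 72.2 CPM in deltamethrin. The highest value of each group stood far above the rest of that group, since no other library exceeded 33.9 CPM. Its log2 fold change was -0.094 ± 0.20 (SE; adjusted p = 0.921 edgeR) and changed sign to 0.21 without control replicate 10 and to 0.074 with both high libraries left out.

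Homer1 and Inhba differed little between the groups. Homer1 (ENSMUSG00000007617, chromosome 13, 93299635 to 93405129, plus strand) ran from 88.4 through 119 to 174 CPM in control and from 88.7 through 116 to 183 CPM in deltamethrin, and its log2 fold change was -0.049 ± 0.10 (SE; adjusted p = 0.918 edgeR). That sign changed to 0.021 without scaling factors, where the median of all genes was 0.043. The gene makes both long scaffold forms and the short activity-induced form Homer1a, and a count per gene does not separate them. Inhba (ENSMUSG00000041324, chromosome 13, 16011851 to 16031621, plus strand) was the least abundant member, with 39 to 163 counts per library. It ran from 2.33 through 3.13 to 4.55 CPM in control and from 2.08 through 3.01 to 5.18 CPM in deltamethrin, and its log2 fold change was 0.065 ± 0.12 (SE; adjusted p = 0.909 edgeR).

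The granule genes Pcsk1 and Scg2 had overlapping ranges in the groups. Pcsk1 (ENSMUSG00000021587, chromosome 13, 75089826 to 75134861, plus strand) ran from 12 through 17.7 to 20.8 CPM in control and from 11.4 through 17.6 to 26.7 CPM in deltamethrin, and its log2 fold change was 0.045 ± 0.098 (SE; adjusted p = 0.921 edgeR). Scg2 (ENSMUSG00000050711, chromosome 1, 79434669 to 79440120, minus strand) ran from 55.9 through 99.8 to 121 CPM in control and from 80.1 through 106 to 135 CPM in deltamethrin. Its log2 fold change was 0.15 ± 0.094 (SE; unadjusted p = 0.117, adjusted 0.813 edgeR), and 6 of 18 deltamethrin libraries lay below the control median. With the mitochondrial rRNA share of each library as a covariate, the Scg2 difference was 0.14 with an unadjusted p of 0.01 (0.497 after adjustment, edgeR). Its 3 lowest libraries were control replicates 2, 7 and 11, at 55.90, 64.62 and 71.46 CPM, and control replicates 2 and 7 also had the highest mitochondrial rRNA shares, 40.24% and 27.35%. Control replicate 2 also had the lowest total count, 17570311. Without it the Scg2 log2 fold change was 0.1 (unadjusted p = 0.241, edgeR), the lowest of the fits that left out 1 library.

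**Figure D2:**
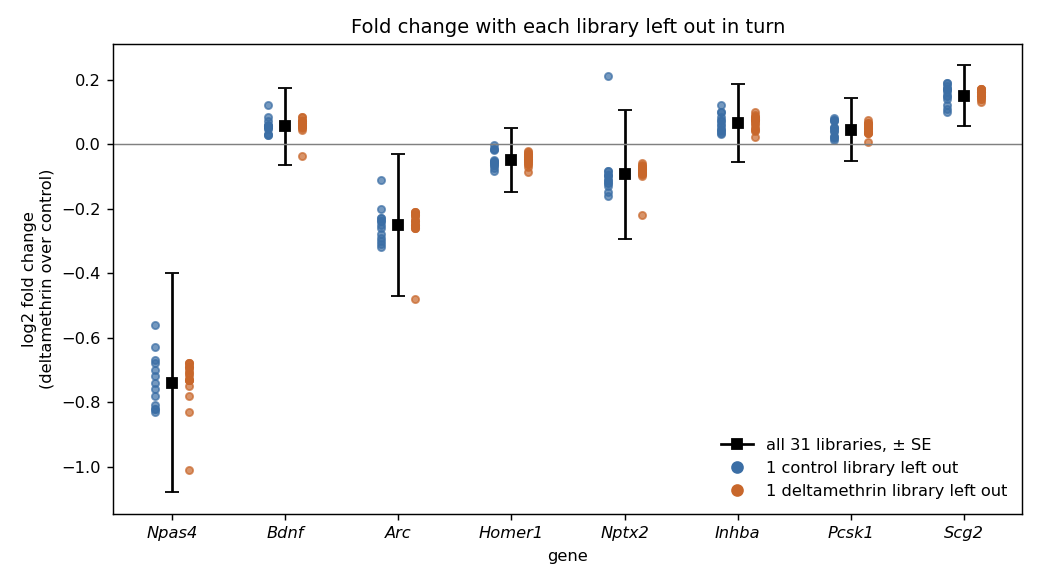
Log2 fold change (deltamethrin over control) of each gene with all 31 libraries (square, bar ± SE) and with 1 library left out in turn (points, coloured by the group of the library left out). Npas4 runs from -1.01 to -0.56 and stays below 0 throughout, Arc from -0.48 to -0.11, and Nptx2 from -0.22 to 0.21 across 0.

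The SD of log2 CPM within groups was 0.99 for Npas4, above that of 99.9% of the 2049 genes whose mean log2 CPM lay within 0.5 of its own. The same SD was 0.61 for Arc (above 99.3% of 1643 genes of similar level) and 0.55 for Nptx2 (98.9% of 2801). It was 0.32 for Bdnf (82.0% of 2567), 0.33 for Inhba (58.2% of 1579), 0.29 for Homer1 (69.0% of 1253), 0.28 for Pcsk1 (75.4% of 2744) and 0.27 for Scg2 (67.4% of 1477). From the lowest to the highest library Npas4 spanned 12.5-fold, Nptx2 7.93-fold and Arc 6.78-fold, whereas Homer1 spanned 2.07-fold. Npas4, Arc and Nptx2 were the most variable members by each of these measures, while the order of the other members changed with the measure.

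Control replicate 10 and deltamethrin replicate 5 carried the highest levels of 4 of the 8 genes. Npas4 was 35.3 and 36.2 CPM in them, against 2.89 to 28.2 CPM in the other 29 libraries. Arc was 228 and 320 CPM against 47.2 to 141 CPM elsewhere, Bdnf 20.3 and 29.4 against 9.16 to 15.9 CPM, and Nptx2 98.6 and 72.2 against 12.4 to 33.9 CPM. Fos, the classic early factor of the AP-1 family, was 42.7 and 36.2 CPM against 2.45 to 19 CPM. The order of the pair was not the same for each gene, since Nptx2 and Fos were higher in control replicate 10 and Arc and Bdnf in deltamethrin replicate 5. Homer1 was 157 and 183 CPM, the second of these the highest of all libraries, while Inhba (3.13 and 4.59 CPM), Pcsk1 (16.5 and 15.1 CPM) and Scg2 (83.0 and 101 CPM) lay within the range of the others. Neither library had the lowest or the highest value of all libraries in any of the 12 marker sums. The projection neuron sum was 2000 CPM and 1990 CPM, and the blood sum 1100 CPM and 717 CPM. Several sums were below both group medians in both libraries, among them inhibitory neurons at 300 and 335 CPM (medians 406 and 416), pan-neuronal markers at 1760 and 1980 CPM (medians 2320 and 2260) and cerebellum at 351 and 297 CPM (medians 424 and 442). The part of composition in their high activity genes was not tested further.

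The libraries next below these 2 in Npas4 were control replicates 3, 9 and 8, deltamethrin replicate 14 and control replicate 4, with Npas4 from 18.79 to 28.2 CPM. Arc was 130.8, 141 and 123.7 CPM in the 3 highest of them, above both group medians, and 90.81 and 96.66 CPM in the other two, at or below the control median of 96.7 CPM and above the deltamethrin median of 79.9 CPM. Bdnf ran from 12.42 to 13.02 CPM over the 5 libraries, beside group medians of 12.9 and 13.2 CPM. Nptx2 ran from 24.53 to 30.25 CPM, beside group medians of 25.6 and 25.9 CPM.

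**Figure D3:**
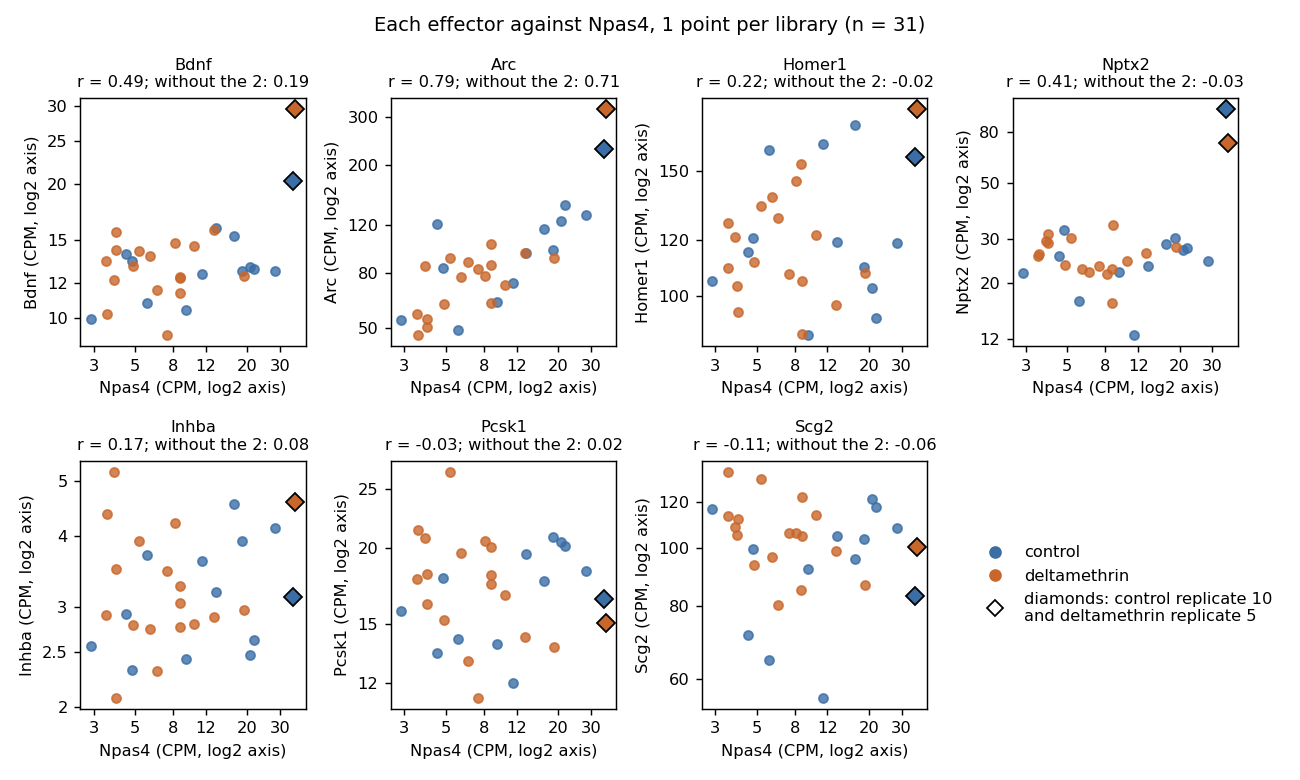
Level of each effector against Npas4 (CPM, log2 axes), 1 point per library, coloured by group, with diamonds for control replicate 10 and deltamethrin replicate 5 and Pearson r given with and without them. Arc rises along the whole range of Npas4 (r = 0.789, and 0.706 without the diamonds), whereas Bdnf and Nptx2 are high only in the diamonds (r = 0.192 and -0.0253 without them).

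Whether the effectors followed Npas4 from library to library was asked by correlating log2 CPM over the 31 libraries, for all 28 pairs of members, with two-sided permutation tests, whose smallest p is 1e-05, and adjustment over the 28. Arc followed Npas4 most closely (Pearson r = 0.789, permutation p = 1e-05, adjusted 0.00014; Spearman rho = 0.748, permutation p = 1e-05, adjusted 0.00028). That r was 0.742 within control, 0.812 within deltamethrin and 0.706 (permutation p = 3e-05) without the 2 libraries farthest from the median Npas4 level, which were control replicate 10 and deltamethrin replicate 5. Bdnf had r = 0.490 with Npas4 (permutation p = 0.00379, adjusted 0.0177) but rho = 0.296 (permutation p = 0.105, adjusted 0.295), and r was 0.192 (permutation p = 0.319) without those 2 libraries, so the relation rested on them. Within control its r was 0.568 and within deltamethrin 0.544, each with 1 of the pair included. Nptx2 had r = 0.414 (permutation p = 0.0185, adjusted 0.0576) and rho = 0.168 (permutation p = 0.365, adjusted 0.681), and r was -0.0253 without them. The r with Npas4 was 0.224 for Homer1, 0.172 for Inhba, -0.0338 for Pcsk1 and -0.109 for Scg2, with adjusted permutation p-values of 0.453, 0.555, 0.896 and 0.719, and rho of 0.0976, 0.145, -0.0411 and -0.183 (adjusted permutation p = 0.749, 0.718, 0.884 and 0.680). For Pcsk1 the r with Npas4 was 0.503 within control and -0.404 within deltamethrin, a difference that was not tested.

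Among the other 21 pairs, the 3 formed by Bdnf, Arc and Nptx2 also rested on the 2 high libraries. Their r was 0.678 for Bdnf and Arc, 0.702 for Bdnf and Nptx2 and 0.672 for Arc and Nptx2 (adjusted permutation p = 0.00159, 0.00196 and 0.0023), with rho of 0.375, 0.475 and 0.438 (adjusted permutation p = 0.155, 0.0714 and 0.0855). Without the 2 libraries r fell to 0.287, 0.319 and 0.250 (adjusted permutation p = 0.368, 0.281 and 0.446). Other pairs had a stronger r without them. Nptx2 then followed Scg2 (r = 0.690, adjusted permutation p = 0.00187, against 0.270 in all 31 libraries) and Pcsk1 (r = 0.488, adjusted permutation p = 0.0408, against 0.191). It ran against Homer1 (r = -0.528, adjusted permutation p = 0.0217, against 0.109). These 2 libraries held the highest Nptx2 values and were left out after seeing the data, so the p-values without them are only a description. Pcsk1 and Scg2, both granule genes, followed each other in all 31 libraries (r = 0.682, permutation p = 1e-05, adjusted 0.00014; rho = 0.673, permutation p = 4e-05, adjusted 0.00056; r = 0.835 within control and 0.632 within deltamethrin). That r was 0.753 without the 2 libraries farthest in Pcsk1. Homer1 followed Inhba by r (0.475, adjusted permutation p = 0.0298; rho = 0.459, adjusted permutation p = 0.0714), and r was 0.330 (permutation p = 0.0808) without the 2 libraries farthest in Homer1, control replicate 1 and deltamethrin replicate 5, on which it rested in that comparison. It was 0.429 (adjusted permutation p = 0.0836) without control replicate 10 and deltamethrin replicate 5, and 0.591 (adjusted permutation p = 0.00269) after the mitochondrial rRNA share was taken out. Homer1 ran against Scg2 by r (-0.450, adjusted permutation p = 0.039), with rho = -0.399 (adjusted permutation p = 0.128). That r was -0.523 without control replicate 1 and deltamethrin replicate 5, and -0.472 (adjusted permutation p = 0.0442) without control replicate 10 and deltamethrin replicate 5. It was -0.167 after the mitochondrial rRNA share was taken out (permutation p = 0.368, adjusted 0.573). Of the 28 pairs 8 passed by r and 2 by rho, namely Npas4 with Arc and Pcsk1 with Scg2.

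**Figure D4:**
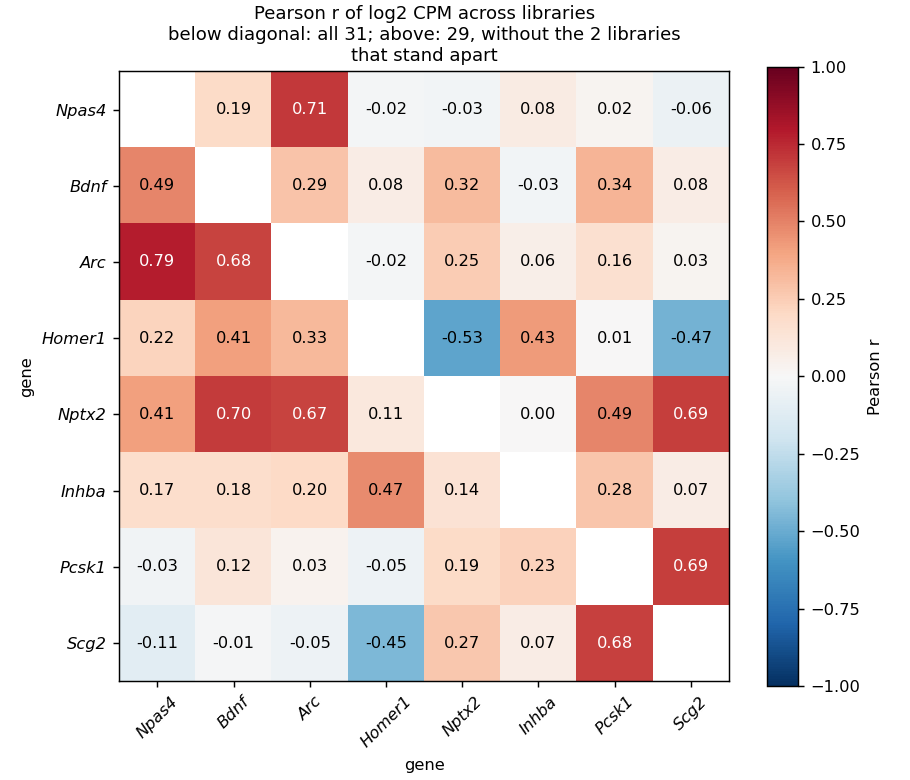
Pearson r of log2 CPM for the 28 pairs of genes, below the diagonal over all 31 libraries and above it over the 29 without control replicate 10 and deltamethrin replicate 5. The Npas4 and Arc pair (0.789 and 0.706) and the Pcsk1 and Scg2 pair (0.682 and 0.693) are high on both sides, while Bdnf with Nptx2 drops from 0.702 to 0.319 and Nptx2 with Scg2 rises from 0.270 to 0.690.

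Library composition was measured by the share of counts in the mitochondrial rRNAs mt-Rnr1 and mt-Rnr2, the mean level of 7 projection neuron markers and the mean level of 7 cerebellar markers, giving 24 relations with the 8 genes. Both granule genes were lower in libraries with more mitochondrial rRNA. For Scg2 r was -0.850 and rho -0.798 (each permutation p = 1e-05, adjusted 0.00012), with -0.939 within control, -0.786 within deltamethrin and -0.759 without the 2 farthest libraries. For Pcsk1 r was -0.794 and rho -0.779 (each permutation p = 1e-05, adjusted 0.00012), with -0.794 within control, -0.823 within deltamethrin and -0.763 without the 2 farthest. Over all 31 libraries, taking out the mitochondrial rRNA share from both genes left r = 0.0210 for Pcsk1 with Scg2 (permutation p = 0.911, adjusted 0.943). For Nptx2 with Scg2 it took r from 0.270 to -0.0577 (permutation p = 0.756). For Nptx2 with Pcsk1 it took r from 0.191 to -0.155 (permutation p = 0.403), and for Nptx2 with Homer1 from 0.109 to 0.311 (permutation p = 0.086). The step was not run without the 2 high libraries, where Nptx2 and Scg2 had r = 0.690. The same step brought Homer1 and Pcsk1 from r = -0.0487 to 0.544 (permutation p = 0.00158, adjusted 0.00737) and left Npas4 with Arc at 0.792 (permutation p = 1e-05, adjusted 0.00028). Npas4, Arc and Bdnf showed no relation to the mitochondrial rRNA share that passed the test (r = 0.0596, -0.0309 and -0.0106, adjusted permutation p = 0.900, 0.965 and 0.965). Homer1, Nptx2 and Inhba did not pass either. For Homer1 r was 0.436 and rho 0.406 (adjusted permutation p = 0.0664 and 0.0628). For Nptx2 r was -0.351 and rho -0.408 (adjusted permutation p = 0.115 and 0.0628), and for Inhba r was -0.121 (adjusted permutation p = 0.652).

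The projection neuron markers followed Nptx2 and Arc by rank only. Their rho was 0.608 with Nptx2 (permutation p = 0.00038, adjusted 0.00304) and 0.518 with Arc (permutation p = 0.00297, adjusted 0.0143), while r was 0.463 and 0.382 (adjusted permutation p = 0.0531 and 0.112) and, without the 2 farthest libraries, 0.363 and 0.428. For Npas4 it was r = 0.177 (adjusted permutation p = 0.509) and for Bdnf 0.426 (adjusted permutation p = 0.0664). The summed markers ran from 1020 to 2350 CPM in control (median 2000) and from 1290 to 2040 CPM in deltamethrin (median 1780), and with their mean as a covariate the Npas4 difference was -0.65 (unadjusted p = 0.0681, edgeR). Homer1 ran against the cerebellar markers by rank (rho = -0.524, permutation p = 0.00268, adjusted 0.0143; r = -0.475, adjusted permutation p = 0.053, and -0.543 without the 2 farthest libraries). Those markers summed to 160 to 493 CPM in control and 182 to 641 CPM in deltamethrin. The part of the mitochondrial share and of these cell types in the group differences was not tested beyond the covariate fits.

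**Figure D5:**
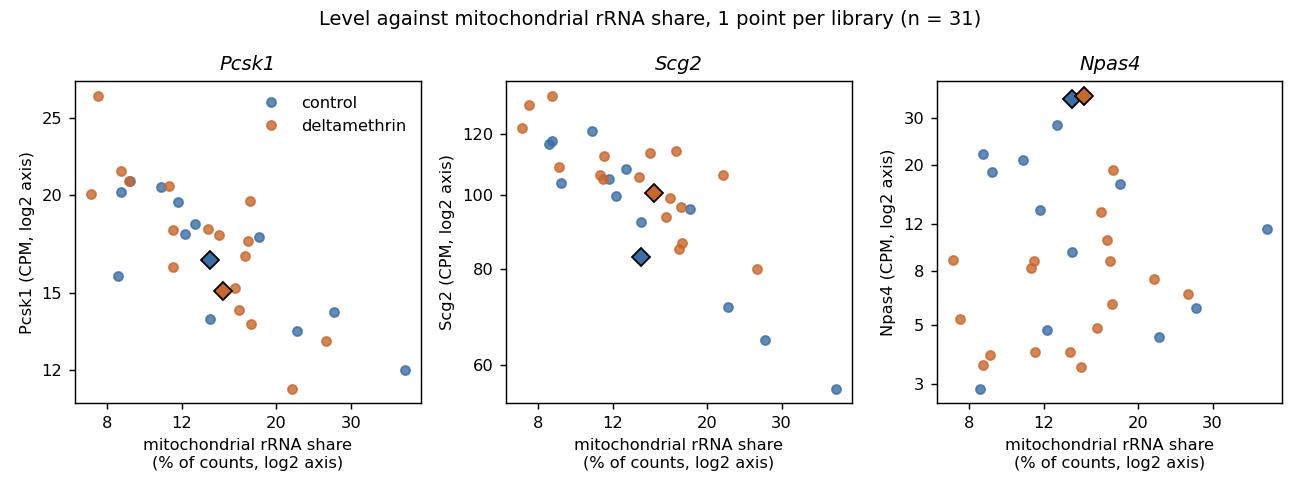
Levels of Pcsk1, Scg2 and Npas4 (CPM, log2 axis) against the share of counts in mitochondrial rRNA (percent, log2 axis), 1 point per library, coloured by group, with diamonds for control replicate 10 and deltamethrin replicate 5. Pcsk1 (r = -0.794) and Scg2 (r = -0.850) fall along the axis in both groups, and Npas4 (r = 0.0596) does not.

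The genes outside the 8 whose pattern was most like each member were ranked by Pearson r of log2 CPM over the 31 libraries after each group's mean was subtracted, as a description. Those nearest Npas4 were the early genes Btg2 (r = 0.841), Junb (0.831) and Fos (0.819), and Arc stood at rank 5 among all other genes at 0.775. Nearest Arc were Egr2 (0.946), Junb (0.943) and Fos (0.931), and Npas4 stood at rank 18. Bdnf was nearest to Ptgs2, the inducible cyclooxygenase (0.796), Egr4 (0.770) and the ERK phosphatase gene Dusp6 (0.757). Nptx2 was nearest to Fosb (0.887), Ier5 (0.876) and the cell cycle inhibitor gene Cdkn1a (0.873). Most of these neighbours are early or activity-induced genes. These r values include control replicate 10 and deltamethrin replicate 5.

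The other members had different neighbours. Homer1 was nearest to Tiparp (0.871), Evi5 (0.838) and Btaf1 (0.819), of which Tiparp is itself in the list of other late activity-induced genes described below. Inhba was nearest to Neto1, a kainate receptor partner (0.716), Kcna4, a potassium channel (0.707), and Skil, a Smad repressor (0.681). Pcsk1 was nearest to Plcxd2 (0.914), Sort1, which encodes the sorting receptor sortilin (0.910), and Ccdc186 (0.907), and among the genes nearest Scg2 were P4hb (0.935) and Lgmn (0.932), of which P4hb acts in protein folding in the endoplasmic reticulum. In the order of likeness to Npas4, Bdnf stood at rank 45 and Nptx2 at rank 164 of 19528 genes, while Homer1, Inhba, Scg2 and Pcsk1 stood at ranks 3282, 3408, 10123 and 10267. Scg2 stood at rank 1709 in likeness to Pcsk1, and Pcsk1 at rank 1970 in likeness to Scg2. The relation of these granule genes was thus not particular to them, since many other genes were closer to each.

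Levels were compared between genes only per length, as CPM per kilobase of merged GENCODE exons, a length that counts every alternative exon and so lowers genes such as Homer1 and Bdnf. In control the median was 39.7 CPM per kb for Scg2, 31.6 for Arc, 10.1 for Nptx2 and 9.92 for Homer1. It was 3.27 CPM per kb for Npas4, 3.16 for Pcsk1, 2.07 for Bdnf and 0.490 for Inhba. Neighbours in this order overlapped in range except for Bdnf (1.6 to 3.27) and Inhba (0.365 to 0.712). In deltamethrin the median of Npas4 was 1.69 CPM per kb, which placed it below Pcsk1 (3.14) and Bdnf (2.13), but its range of 0.846 to 8.76 covered both medians.

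The wider pathway was described with 9 gene lists holding 113 genes, of which 112 were tested and Ntf5 was not. By edgeR 0 of the 112 had an adjusted p-value under 0.05, and 3 (2.68%) had an unadjusted p-value under 0.05, 2 higher and 1 lower, beside 4.37% of all genes tested. Of the 112 log2 fold changes 69 were positive and 43 negative, beside 49.5% negative over all genes tested. The 3 were Camk2d, Camkk1 and Arntl. Among 25 genes of calcium signalling to the nucleus, 16 of them positive, Camk2d, a CaM kinase II subunit, was 82.5 ± 9.95 CPM in control (SD, n = 13) and 95.3 ± 17.1 CPM in deltamethrin (SD, n = 18). On the log2 scale Camk2d differed by 0.21 ± 0.082 (SE; unadjusted p = 0.0168, edgeR). Camkk1, a kinase that activates CaM kinases, had a log2 fold change of -0.15 ± 0.071 (SE; unadjusted p = 0.0481). Among 6 PAS domain relatives and partners of Npas4, 4 of them positive, the clock activator Arntl had 0.12 ± 0.055 (SE; unadjusted p = 0.038). After adjustment over the 19529 genes p was 0.813 for all 3 (edgeR).

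The lists around the effectors held 0 genes with an unadjusted p-value under 0.05 by edgeR, beside 4.37% of all genes tested. Of all genes tested 49.5% had a negative log2 fold change, and the counts of signs below were not tested. All 8 genes of AMPA receptor clustering had a positive log2 fold change (median 0.085), with the smallest p-value for Gria4, an AMPA receptor subunit (0.16 ± 0.083 SE; unadjusted p = 0.0643). Of 9 Homer relatives and binding proteins 8 were positive (median 0.11), the nearest to the threshold being Homer2 (0.17 ± 0.14 SE; unadjusted p = 0.237). Of 13 other late activity-induced genes 11 were negative (median -0.037), and Trib1, a pseudokinase gene, came nearest (-0.19 ± 0.11 SE; unadjusted p = 0.0892). The 18 tested genes of neurotrophins, their receptors and processing had a median of 0.026 and 14 positive values, with Pcsk6 nearest (0.18 ± 0.14 SE; unadjusted p = 0.228). Medians were -0.030 for 7 Arc partners (2 positive), 0.0082 for 14 activin genes (9 positive) and 0.022 for 13 granule genes (7 positive), where the nearest genes were Sh3gl1 (-0.087 ± 0.070 SE), the activin antagonist gene Fst (-0.18 ± 0.12 SE) and the granule enzyme gene Cpe (0.11 ± 0.093 SE), with unadjusted p-values of 0.226, 0.137 and 0.249 (edgeR).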

How the data were processed

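Gene-level read counts, deposited by the authors without normalization, were the only values used. Per the submitters' processing notes, Trimmomatic, HISAT2, SAMtools and MultiQC were used with GRCm38; the counting tool, annotation and use of strand are not given in the sources used here. Columns were matched to samples by title. Per the labels' protocols, RNA came from homogenised brain aliquots by a column kit and was sequenced as total RNA on an Illumina NovaSeq. Positions are from GENCODE M21 (GRCm38), matched by gene ID.

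Genes were kept by filterByExpr of edgeR 4.0.16 (R 4.3.3; minimum count 10, minimum total 15) and tested by the quasi-likelihood F-test with TMM factors, robust=TRUE, no covariates and Benjamini-Hochberg adjustment over 19529 genes. Each SE is |log2 fold change| over √F. Log2 CPM has a prior count of 2. Correlations used two-sided permutation tests with 100000 resamples (scipy 1.17.1, numpy 2.4.6). Alternatives used DESeq2 1.42.0, limma 3.58.1, other factors, filters and covariates, and leaving out each sample. On simulated counts the test called 96% of 50 genes changed 2-fold, 66% at 1.5-fold, 32% at 1.25-fold and 30% at 0.8-fold, with 7 false calls (19401 genes tested). The changed genes were picked at random and each gene was simulated independently, without differences shared across a library. These shares therefore do not carry over to genes as variable as Npas4, Arc and Nptx2. Libraries within a group differed beyond sampling noise (smallest chi-square per degree of freedom 6.2 over 231 pairs), so none was treated as the same library sequenced again. Aliquots of 1 animal could differ in this way too, so the measure cannot show whether the samples came from separate animals.

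The 8 genes and the lists were chosen with earlier results of these data known. Named genes were all 8 members, the 3 most alike outside genes for each (1 of those for Scg2 is not reported here), and for each list up to 3 genes with an unadjusted p-value under 0.05 or else the smallest. Leaving out control replicate 10 and deltamethrin replicate 5 together, and the residuals after the mitochondrial rRNA share for all 28 pairs, were added after seeing the data, as were the values given for Fos.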

Additional observations from a re-analysis of the deposited data

How the results depend on the processing

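No setting gave any gene an adjusted p under 0.05: the count was 0 in all 12 alternatives and in all 31 fits that left out 1 sample. The smallest adjusted p of any gene was 0.441 in the main edgeR fit and 0.0531 with DESeq2. By edgeR it was 0.0521 without control replicate 5 and 0.982 without control replicate 10, so some fits lay just above the threshold. The number of members with an unadjusted p-value under 0.05 was 1, against 0 without scaling factors, with no count filter and with the projection neuron covariate, and 2 (Npas4 and Arc) without control replicate 10 and deltamethrin replicate 5, and it ran from 0 to 2 across the leave-one-out fits. Npas4 kept its sign throughout (-1.01 to -0.56 when 1 sample was left out, unadjusted p 0.00154 to 0.104). Its unadjusted p-value passed 0.05 without any one of control replicates 3, 4, 8, 9 and 10 or deltamethrin replicates 1, 2, 6, 7, 8, 12, 13, 15 and 17, and it was 0.053 without factors, 0.0545 with no count filter, 0.0514 with the mitochondrial rRNA covariate (where Scg2 was the 1 member under 0.05) and 0.0681 with the projection neuron covariate. Nptx2 changed sign to 0.030 with the projection neuron covariate, 0.21 with DESeq2, 0.0033 with limma voom and 0.074 without the 2 high libraries, and took values of -0.22 to 0.21 when 1 sample was left out. Homer1 was 0.021 without factors, and Bdnf lay between -0.037 and 0.12 when 1 sample was left out. The number of effectors correlated with Npas4, with p adjusted over the 7 rather than the 28 pairs, was 3 (Arc, Bdnf and Nptx2), 1 without the 2 high libraries and 1 to 3 across the leave-one-out sets (1 without control replicate 10 and 1 without deltamethrin replicate 5). The r with Npas4 changed sign for Pcsk1 (0.0957 without factors, 0.0224 after the mitochondrial rRNA share, 0.0238 without the 2 high libraries, -0.076 to 0.027 across leave-one-out sets), for Scg2 (0.0577 without factors) and, without the 2 high libraries, for Homer1 (-0.0191, and 0.0956 to 0.296 across leave-one-out sets) and Nptx2 (-0.0253, and 0.256 to 0.475). The cause of these changes was not tested. No paired analysis was possible because sample numbers were assigned in accession order and link no samples. Inhba, with 39 to 163 counts per library, had the lowest depth of the members.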
